A study of Mus musculus with 24 samples.

Results

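The 4 libraries described here were made from brain microvascular endothelial cells of mice labelled as lacking the sphingosine 1-phosphate receptor S1P4, and they were taken by their labels, as replicates 1 to 4 of the vehicle-treated knockout group, from a series of 24 libraries. The series grew primary brain endothelial cells on porous inserts and applied S1P, an S1P4 agonist or vehicle to wild-type C57/B6 cells, and it added vehicle-treated knockout cells for comparison. The knockout-labelled mice carried the S1P4 KO/KO genotype in every cell (a global deletion), and 12 mice were pooled for each replicate. Vessels came from cortex and midbrain, the cultures spent 48 h in puromycin, which removes other cell types, and the cells rested 48 h on the inserts before 24 h in vehicle medium. RNA of 3 inserts was pooled, and 100 ng of it went into a stranded mRNA library. The table of these libraries was scaled apart from that of the wild-type libraries, so every comparison here is within the 4 libraries and no test between groups was made. It held 36326 rows for 18297 genes. Of these, 18029 stood on 2 identical rows, of which 1 was kept.

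Endothelial cells of brain capillaries form the blood-brain barrier. Their tight junctions close the gaps between cells, carriers and efflux pumps decide what crosses, transport through caveolae is held low, and a basement membrane of collagen IV, laminins, nidogen and perlecan lies under the sheet. Sphingosine 1-phosphate is a signalling lipid that endothelial cells receive through G protein-coupled receptors, of which S1P1 is the best known stabiliser of endothelial junctions.

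The values are normalized counts, that is read counts that the authors had divided by a factor per library and rounded. Their totals were alike, between 17361639 and 17833560 per library. The steps between low values put 1 read at 0.83 to 1.05 normalized counts, which gives about 21.1, 19.2, 18.7 and 17.1 M reads (M, 1000000) in replicates 1 to 4. Genes above 0 numbered 17486, 17385, 17016 and 16635 in the same order. A mean of at least 10 was reached by 12894 of the 18297 genes, with a median of 446, so most genes passed this floor. The design gives 12 mice to each replicate, and the labels give no day or batch, so the SDs below hold the spread between pools together with that of culture and library preparation.

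The targeted gene, S1pr4, was present in all 4 libraries, at 250, 261, 349 and 260 normalized counts. Replicate 3 was the highest and the other 3 were close together. S1pr4 is a gene with 1 exon of 2386 bases on chromosome 10 (mm10 81497747 to 81500132, minus strand), and its level was 117 ± 19.4 normalized counts per exonic kb (SD, n = 4). The labels do not say which bases the allele lacks, so this row does not check the label, and the cells are called knockout-labelled throughout. The same receptor family was led by S1pr1, with 11953, 11489, 13225 and 14331 normalized counts. Per exonic kb S1pr1 stood at 4186 ± 422 (SD, n = 4), above S1pr4 in every library. S1pr2, at 86, 90, 103 and 129 normalized counts, and S1pr3, at 13, 20, 12 and 9, were lower than S1pr4 in every library per exonic kb as well (means of 12.8 and 3.03). S1pr5 was not analysed here. Among the genes that make, degrade and export the ligand, the lipid exporter Spns2 had 2214, 2052, 2974 and 3135 normalized counts, the lyase Sgpl1 1630, 1578, 1629 and 1569, and the kinase Sphk2 597, 620, 629 and 762. The other kinase, Sphk1, was near 0 at 2, 7, 1 and 1.

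**Figure D1:**
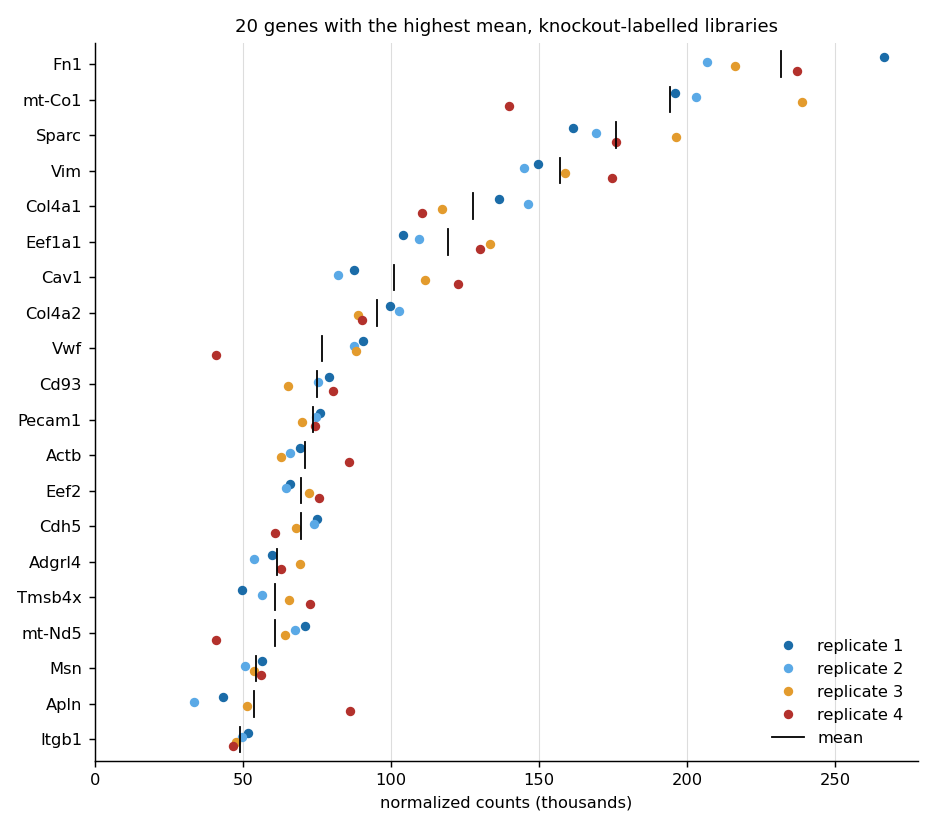
Normalized counts (in units of 1000, horizontal axis from 0) of the 20 genes with the highest mean, with 1 point per knockout-labelled library and a black line at the mean. Fn1 leads with a mean of 231550, Vwf has replicate 4 at 40904 and the other libraries at 87563 or higher, and Apln has replicate 4 at 86197.

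The transcriptome was led by matrix, mitochondrial, cytoskeletal, translation and endothelial genes. The 20 genes with the highest mean held 11.3% ± 0.273 of the library total (SD, n = 4), and 4 matrix genes among them, Fn1, Sparc, Col4a1 and Col4a2, held 3.59% ± 0.147. Fn1, which encodes fibronectin, had 266381, 206738, 216090 and 236992 normalized counts, and Sparc, a collagen-binding secreted protein, 161583, 169325, 196350 and 175914. Of the cytoskeletal genes the intermediate filament Vim had 149716, 144792, 158747 and 174659. Replicate 4 was the highest for Vim, replicate 1 for Fn1 and replicate 3 for Sparc, so the order of the libraries differed from gene to gene. The endothelial list gave Vwf, Pecam1, Cdh5 and Adgrl4 to these 20, and Cd93, Apln, Msn, Itgb1, Eef1a1, Eef2, Actb, Tmsb4x and Cav1 also stood there, beside the mitochondrial genes mt-Co1 and mt-Nd5. On the scale of normalized counts per exonic kb mt-Co1 came first (125769), before Eef1a1 (47867), Sparc (46408) and Tmsb4x (44494), and Fn1, whose transcripts are long, had 19816.

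Endothelial identity was broad. All 34 listed pan-endothelial markers had a mean of at least 10, as did 12894 of all 18297 genes. The 34 markers summed to 3.58% ± 0.223 of the total (SD, n = 4). Their median was 12458 normalized counts, against 446 over all expressed genes. Pecam1, the adhesion molecule of the junction, had 75957, 74672, 70128 and 74291, and Cdh5, the VE-cadherin of adherens junctions, had 75039, 74043, 67946 and 61005. Pecam1 was the steadier, with a CV of 3.42%. Among receptors, Eng (endoglin, a TGF-beta co-receptor) had a mean of 28043 normalized counts and the angiopoietin co-receptor Tie1 of 19838. The VEGF receptor Kdr had 22534, 22044, 20828 and 15481, and the other VEGF receptor, Flt1, had 27852, 26058, 22539 and 17494. Both were lowest in replicate 4. Of the 34 markers 14 were lowest there and 7 highest, and of all 12894 genes with a mean of at least 10, 28.8% were lowest and 29.5% highest in replicate 4. All 27 listed endothelial transcription factors had a mean of at least 10, a floor that 12894 of all 18297 genes passed. The hypoxia-responsive factor Epas1 had a mean of 38746 ± 5367 normalized counts (SD, n = 4). Per exonic kb Epas1 (6931) and Sox18 (6311), a SoxF factor of vessel development, stood above Bcl6b (3613) and Sox7 (2416). The ETS factor Erg stood at 7039, 6908, 5648 and 6717, and Foxq1 and Foxf2, which mark brain endothelium in particular, had means of 296 and 1348.

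Markers of vessel position spread over all 3 zones. The arterial genes Sema3g, Dll4 and Efnb2 had means of 8499, 8483 and 6332 normalized counts. Among capillary markers the chemokine Cxcl12 had 18149, 17098, 18611 and 25997, while Mfsd2a had 55, 39, 60 and 75 and Car4 9, 34, 31 and 2. Vwf, the clotting factor that is strongest in veins, had 90488, 87563, 88122 and 40904, and the venous factor Nr2f2 had 1071, 1114, 1154 and 603. In both, replicate 4 stood apart below the other 3, which were close together. The venous list was not uniform, since 3 of its 7 genes were lowest and 3 were highest in replicate 4. Over all genes these shares were 28.8% and 29.5%. Vcam1, a leukocyte adhesion molecule, had 13413, 11647, 14050 and 14605, and the chemokine receptor Ackr1 had 577, 371, 662 and 1147, highest in replicate 4.

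**Figure D2:**
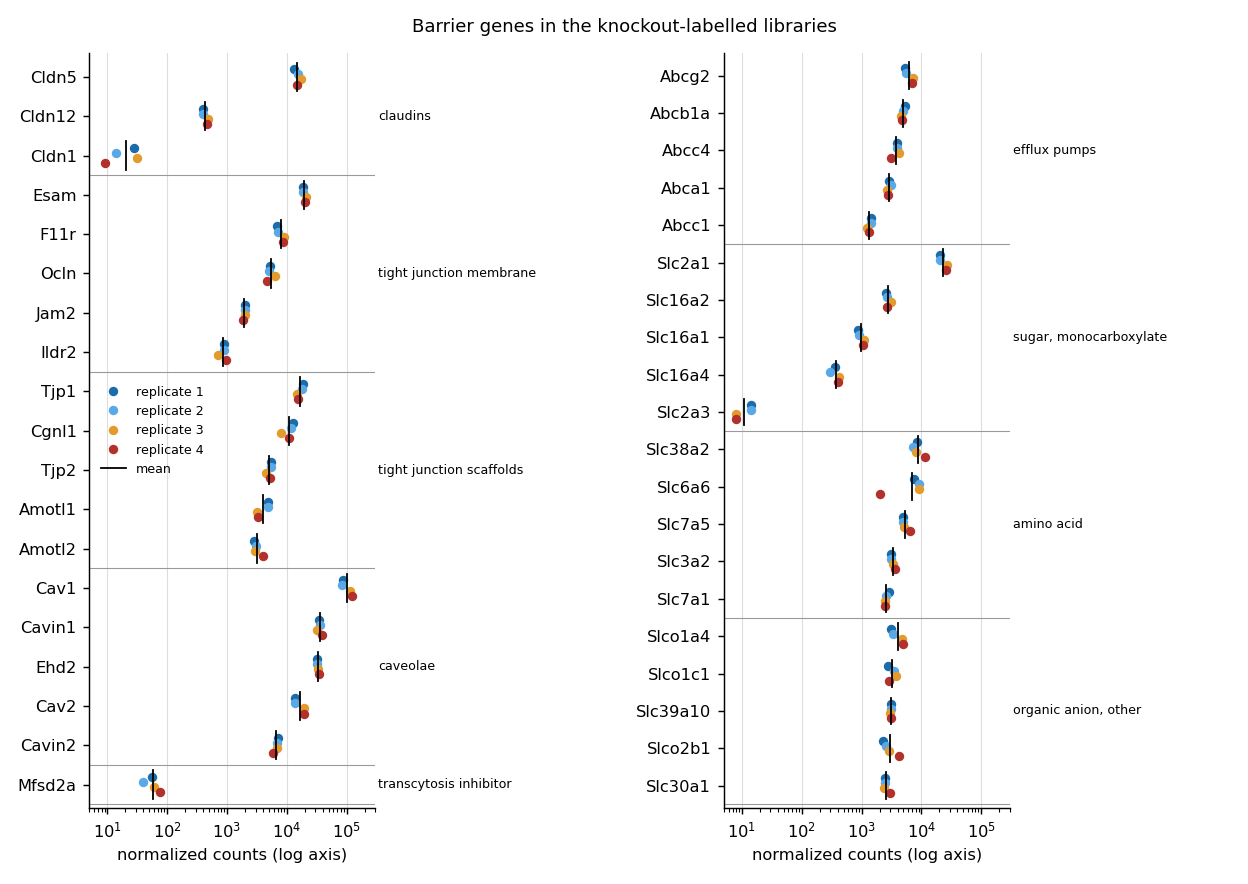
Normalized counts (log axis) of barrier genes by role, with 1 point per library and a black line at the mean of 4. Cldn5 and Slc2a1 lie at 13033 or higher in every library, Mfsd2a lies at 75 or lower, and Slc6a6 has replicate 4 at 2023.

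Of the tight junction list, 22 of 26 genes had a row and 21 had a mean of at least 10, against 12894 of all 18297 genes. The sum of the list, 98280, 98739, 94515 and 95426 normalized counts, was even across libraries. Cldn5, the main claudin of the blood-brain barrier, had 13033, 15077, 16981 and 14961, with no library far from the rest. Per exonic kb Cldn5 stood at 10602 and Cldn12, the next claudin, at 102. Cldn1 had 28, 14, 31 and 9 normalized counts, and Cldn3 was at 0, 0, 0 and 1. Ocln, which encodes occludin, had 5270, 5110, 6244 and 4741, and the adhesion molecules Esam and F11r had means of 19606 and 7832. Tjp1, the scaffold ZO-1, had 18887, 17817, 14543 and 15147. Of the 10 scaffolds, 8 had replicates 1 and 2 both above replicates 3 and 4, as did 30.7% of all genes with a mean of at least 10, and 0 had the reverse, as 30.4% of all genes did. The scaffolds summed to 50067, 48178, 36959 and 42996, while the claudins summed highest in replicate 3. The 21 tight junction genes with a mean of at least 10 had a median exonic length of 6199 bases. The bins of longer genes were also higher in replicates 1 and 2. The part of length in the scaffold values was not tested. Adherens junctions were carried by Cdh5, Pecam1 and the phosphatase Ptprb (22157), with Ctnnb1, the beta-catenin that also signals, at 29862, 30411, 32385 and 28483.

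Caveolar genes were abundant and the inhibitor of caveolar transport was low. The 8 caveolar genes summed to 181394, 176761, 208797 and 225784 normalized counts, led by the caveolar coat Cav1 with 87667, 82189, 111338 and 122603. Replicates 3 and 4 were above replicates 1 and 2 for Cav1 and for Cav2 (13835, 13882, 19031 and 18986). Mfsd2a, a lipid transporter known to suppress caveolar transcytosis in brain endothelium, was low, as given above. Plvap, which forms the diaphragms of leaky vessels and is usually scarce at the barrier, had 817, 815, 1027 and 389, and replicate 4 was the lowest. On a per-length scale Mfsd2a had 25.4 and Cav1 29312 normalized counts per exonic kb. Of the receptors that carry cargo across, Scarb1 had a mean of 4377 and Tfrc, the transferrin receptor, of 3263 normalized counts, and Ager was listed at 15, 17, 7 and 0.

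Efflux pumps were present, with Abcg2 at 5367, 5575, 7324 and 6892 normalized counts and Abcb1a, the P-glycoprotein that expels many drugs, at 5321, 5023, 4607 and 4809. All 9 listed pumps had a mean of at least 10, as did 12894 of all 18297 genes. Together the 9 pumps held 0.122% ± 0.00326 of the total (SD, n = 4). Slc2a1, the glucose carrier GLUT1, had 20305, 20777, 26697 and 25837. Replicates 3 and 4 were the higher ones for Slc2a1 and for the organic anion carrier Slco1a4 (3081, 3328, 4716 and 4848). The large neutral amino acid carrier Slc7a5 and its partner Slc3a2 had means of 5376 and 3317. Slc6a6, the taurine carrier, had 7622, 9160, 8977 and 2023, and replicate 4 stood far below the others. The neuronal-type glucose carrier Slc2a3 had 14, 14, 8 and 8, and Slc7a3 a mean of 6.75, and the organic anion carrier Slc22a8 had 46, 59, 54 and 18.

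**Figure D3:**
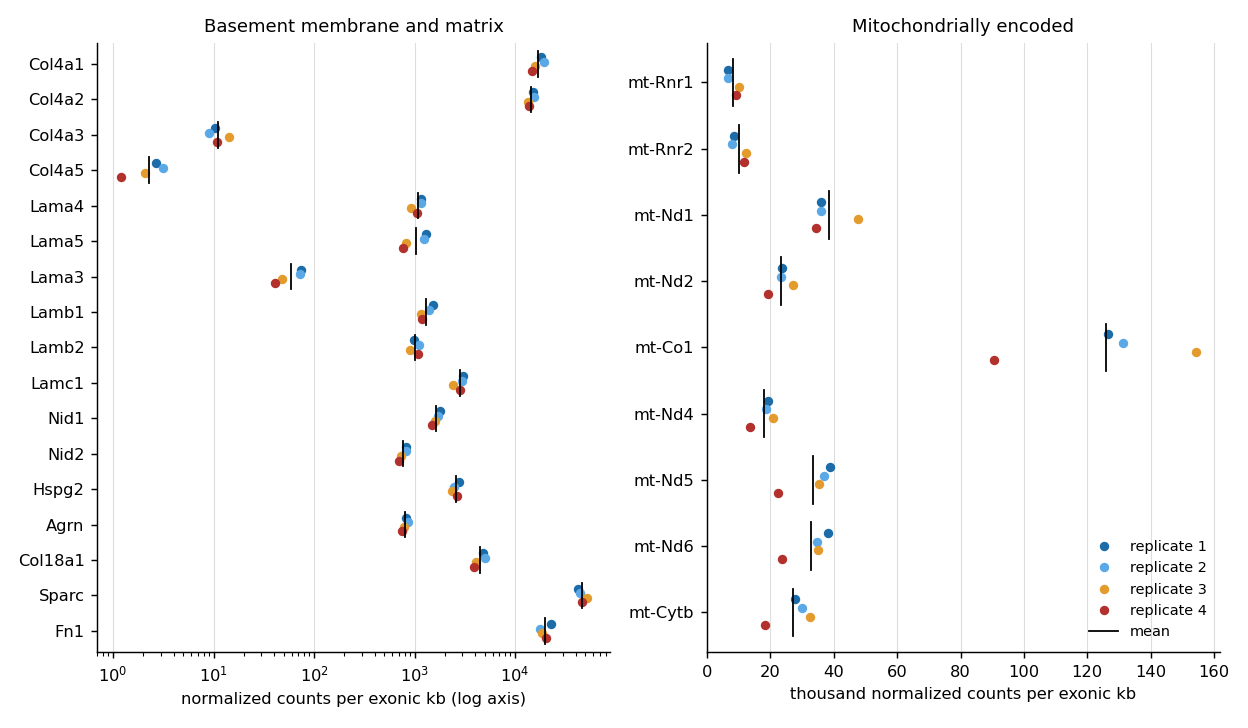
Normalized counts per exonic kb of basement membrane and matrix genes (left, log axis) and of genes encoded by mitochondrial DNA (right, in units of 1000, axis from 0), with 1 point per library and a black line at the mean. Col4a1 and Col4a2 stand at means of 17096 and 14409, below Fn1 at 19816, and the 7 mitochondrial protein genes have replicate 4 lowest while both ribosomal RNAs do not.

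Fibronectin, Sparc and the collagen IV pair made up most of the matrix list. The 49 listed matrix genes summed to 1002243, 950008, 915418 and 930463 normalized counts. Of the 49, 43 had a mean of at least 10, against 12894 of all 18297 genes. Col4a1 had 136419, 146262, 117301 and 110446 normalized counts and Col4a2 had 99555, 102854, 88965 and 90112, so both were highest in replicate 2. The alpha1(IV) and alpha2(IV) chains assemble in a heterotrimer, and the ratio of the normalized counts of Col4a1 to Col4a2 was 1.37, 1.42, 1.32 and 1.23. The other chains were low: Col4a3 had a mean of 110, Col4a5 of 15.3, and Col4a4 of 4.50 normalized counts, and Col4a6 had 2, 3, 1 and 0.

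The Col4a1 and Col4a2 genes are transcribed away from each other from a shared stretch of mouse chromosome 8, which is why their start regions are shown. These are the 250 bases before and 50 after each start in the RefSeq annotation of GRCm38.p6, at chr8:11312777-11313076 (minus strand) for Col4a1 and chr8:11312555-11312854 (plus strand) for Col4a2, each written 5′ to 3′ along its own strand. Capitals mark the 78 bases that both windows hold, as reverse complements.
Col4a1: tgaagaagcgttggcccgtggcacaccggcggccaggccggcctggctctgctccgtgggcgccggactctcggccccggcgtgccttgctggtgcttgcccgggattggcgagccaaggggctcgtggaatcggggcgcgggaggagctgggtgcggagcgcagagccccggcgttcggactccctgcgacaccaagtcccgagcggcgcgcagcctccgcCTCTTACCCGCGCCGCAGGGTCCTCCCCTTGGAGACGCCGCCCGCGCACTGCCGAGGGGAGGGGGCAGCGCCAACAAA
Col4a2: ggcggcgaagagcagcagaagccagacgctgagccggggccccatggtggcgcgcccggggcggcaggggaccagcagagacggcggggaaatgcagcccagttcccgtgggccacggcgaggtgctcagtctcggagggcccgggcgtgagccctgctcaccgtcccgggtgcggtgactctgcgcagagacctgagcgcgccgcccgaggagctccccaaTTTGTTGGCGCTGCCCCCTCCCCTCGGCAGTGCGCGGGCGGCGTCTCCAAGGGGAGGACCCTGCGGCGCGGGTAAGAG
The starts, at positions 11312826 for Col4a1 and 11312805 for Col4a2, lie 21 bases apart. Each start lies inside the other gene, so the annotated 5′ ends overlap and no gap separates them. GC content was 74.0% in the window of Col4a1 and 73.7% in that of Col4a2, against a median of 52.7% over 27025 RefSeq promoter windows. The letters GGGCGG, searched on both strands, matched 1 time in the Col4a1 window and 3 times in that of Col4a2, 1 of them in the shared stretch, and 35.9% of all windows held a match. CCAAT matched 1 time in each window (37.9% of all), and TATAAA in neither (14.2% of all). A match is a description of the letters and not evidence of a bound factor.

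Laminins are trimers of an alpha, a beta and a gamma chain, and chains of each kind were present. Per exonic kb the gamma1 chain Lamc1 stood at 2823, the beta1 chain Lamb1 at 1311, and the alpha chains Lama4 and Lama5 at 1079 and 1030. Lama4, found in all endothelial basement membranes, had 14085, 14112, 11234 and 12635 normalized counts, and Lama5 had 14671, 14147, 9441 and 8662. Lama5 was higher in replicates 1 and 2 than in replicates 3 and 4. Lama2 and Lamb3 were near 0, with means of 4.25 and 1.00. Perlecan, encoded by Hspg2, had a mean of 36583, nidogen-1 (Nid1) of 11475, and Col18a1, the source of endostatin, of 31275. Of the provisional matrix, Ctgf and Cyr61, both targets of mechanical and YAP signalling, had means of 21778 and 15598, and Thbs1 of 13478. Col15a1, a collagen of vascular basement membranes, had 8387, 10009, 8415 and 4202, lowest in replicate 4. The metalloproteases Adamts1, Adam10 and Adam15 had means of 8076, 7626 and 6992, while Mmp9, Mmp3 and Mmp10 were near 0 (means of 1.00, 2.50 and 0.75). The integrin Itgb1, the beta chain of most matrix receptors, had 51862, 49809, 47595 and 46771, and its partners Itga5 (fibronectin) and Itga6 (laminin) had means of 11745 and 11350.

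The 12 genes with a row on mitochondrial DNA held 2.42%, 2.46%, 2.79% and 1.76% of the libraries, and replicate 4 was the lowest. Of 13 protein genes 7 had values: mt-Nd1, mt-Nd2, mt-Nd4, mt-Nd5, mt-Nd6, mt-Cytb and mt-Co1. The other 6, mt-Co2, mt-Co3, mt-Atp6, mt-Atp8, mt-Nd3 and mt-Nd4l, are adjacent in the annotation and were not analysed here. mt-Co1 had 195728, 202915, 238642 and 139965 normalized counts and mt-Cytb 31678, 34381, 37169 and 20932. All 7 were lowest in replicate 4, against 28.8% of all genes. The ribosomal RNAs did not follow the 7 protein genes. Of these RNAs, mt-Rnr1 had 6221, 6250, 9594 and 8763 and mt-Rnr2 13392, 12638, 19279 and 18618, both higher in replicates 3 and 4. Nuclear genes of oxidative phosphorylation were, as a sum, likewise higher in replicates 3 and 4: the 20 listed genes summed to 48972, 51294, 64131 and 65541, and 14 of the 20 were highest in replicate 4, against 29.5% of all genes. Their median exonic length was 2276 bases, and short genes as a class had median deviations of 0.10 and 0.11 in log2 in replicates 3 and 4. The part of length in this sum was not tested. mt-Nd6 lies on the opposite strand from mt-Nd5, with 14 shared bases at their ends, and the ratio of their values per exonic kb was 0.983, 0.934, 0.993 and 1.06. The labels do not say whether reads were counted by strand, so reads of the opposite strand cannot be told apart from mt-Nd6, and nuclear copies of mitochondrial sequence may share reads with any of these genes.

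**Figure D4:**
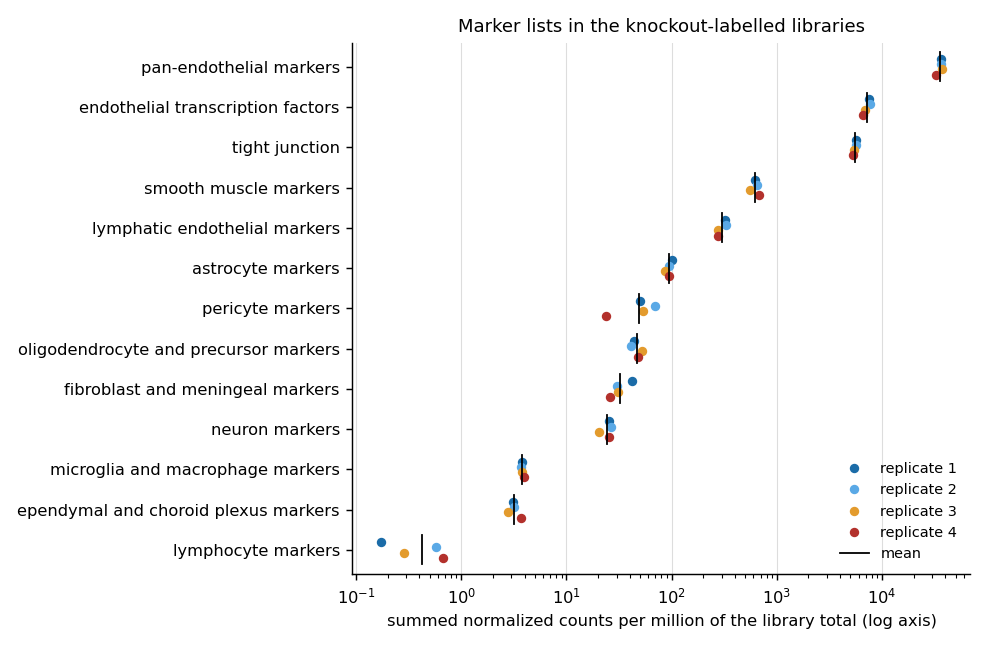
Summed normalized counts of marker lists per M (1000000) of the library total (log axis), with 1 point per library and a black line at the mean. The endothelial and tight junction lists lie highest, and smooth muscle is the highest other cell type. The lymphocyte list, where 2 of 6 genes had a row, stays below 1 per M. The erythroid list, at 0 in replicates 2 and 4, is not drawn.

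Other cell types were scarce. The 11 other lists, for pericytes to lymphatic endothelium, summed to 0.118% ± 0.00728 of the total (SD, n = 4). These lists named 99 genes, of which 27 had no row and add nothing to the sums. Of the 72 with a row, 36 had a mean of at least 10, against 12894 of all 18297 genes. The pericyte list had 871, 1194, 942 and 427 normalized counts. Its defining marker Pdgfrb had 253, 399, 274 and 70. Of the 10 pericyte genes with a row, 7 were lowest in replicate 4, but 3 of the 10 had a mean under 10. Of the 7 pericyte genes with a mean of at least 10, 5 were lowest there, against 28.8% of all genes. The 1 that was highest there, against 29.5% of all genes, was Rgs5, at 47, 51, 46 and 61. The smooth muscle list summed to 10896, 11217, 9707 and 12021, with Smtn (5720), which many cell types express, as its largest member. Smooth muscle actin, Acta2, had 1788, 1747, 2326 and 2705. Of the 10 smooth muscle genes 4 had a mean of at least 1000: Smtn, Acta2, Mylk (1445) and Synpo2 (1258). Myh11, Cnn1 and Actg2 were lower, with means of 63.8, 22.0 and 5.50. No list of brain parenchymal cells showed its whole marker set. The fibroblast list summed to 732, 525, 538 and 464, chiefly Col12a1 (406), and Col1a1 had 17, 0, 2 and 9. The microglia list summed to 66, 64, 67 and 70, almost all of it Cd68, and Trem2 was at 0 in all 4 libraries. In the astrocyte list Gja1, which encodes connexin 43 and is also made by endothelium, held most of the sum (1561), and Aqp4 was at 0 in all 4. The oligodendrocyte list, where 4 of 10 genes had a row, was mainly Cnp (776), and the neuron list was mainly Stmn2 (238) and Tubb3 (158). Ttr and Krt8 of the choroid and ependymal list were at 0 in all 4. The erythroid list, where 1 of 6 genes had a row, held 4, 0, 2 and 0. The lymphocyte list, where 2 of 6 genes had a row, held 3, 10, 5 and 12. The lymphatic list summed to 5695, 5654, 4801 and 4877, nearly all from Flt4, a pan-endothelial gene here. Without it the sum was 91, 87, 101 and 58. In bulk RNA, fewer cells of a type and less RNA per cell cannot be told apart.

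Xist had the largest spread of the genes with a mean of at least 100, and the Y-linked genes were also among the 10 with the largest. Xist, the RNA that silences an X chromosome in females, had 2, 10209, 3796 and 1438 normalized counts. The Y-linked Ddx3y had 2276, 321, 522 and 829, and Eif2s3y 833, 113, 183 and 337. Replicate 1 held almost no Xist and the highest Y-linked values, replicate 2 the highest Xist and the lowest Y-linked values, and replicates 3 and 4 lay between. The labels do not give the sex of the pooled mice.

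**Figure D5:**
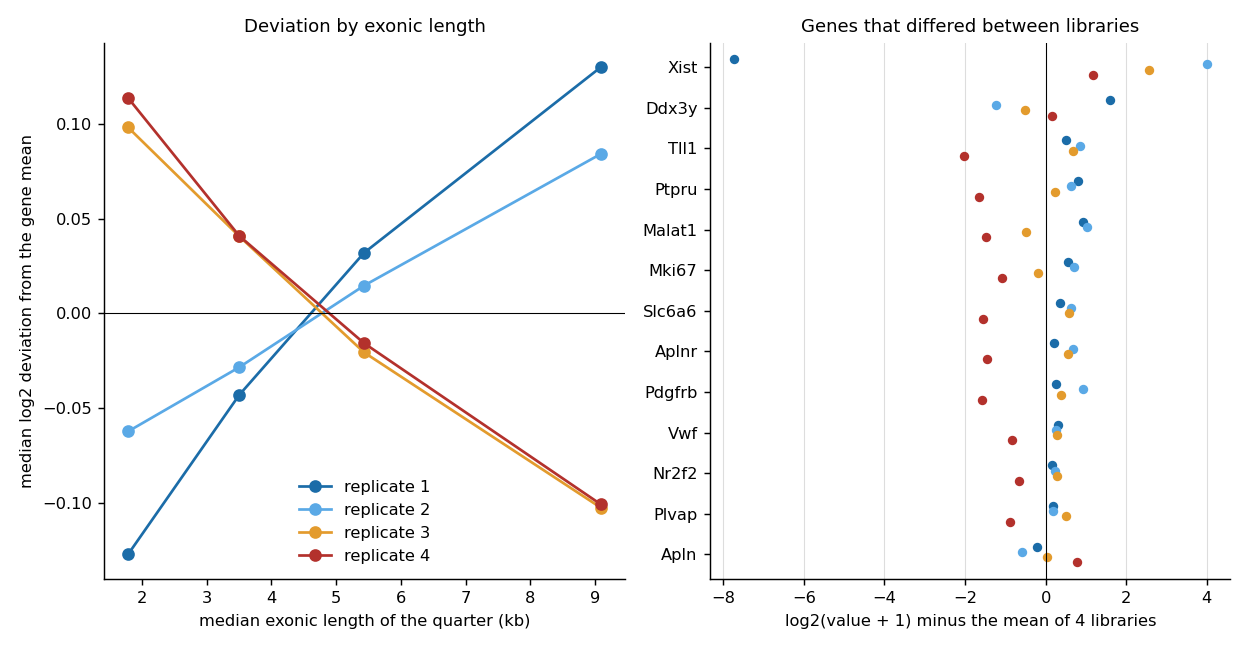
Left, median log2 deviation of genes from their own mean against median exonic length (kb), in 4 equal bins of genes ordered by length, 1 line per library. Right, log2(value + 1) minus its mean of 4 libraries for 13 genes. Replicates 1 and 2 rise with length and replicates 3 and 4 fall, and Xist spans the widest range.

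Most genes varied little between the 4 libraries. The median SD of log2(value + 1) over the 12894 genes with a mean of at least 10 was 0.19, with a median CV of 12.9%. It was 0.37 for genes with means of 10 to 100 and 0.14 for those with means of 1000 and more. Correlations across genes between pairs of libraries ran from 0.977 to 0.993, with the replicates 1 and 2 the most alike, and genes are not independent replicates. Along the leading principal component, with 63.9% of the variance, replicates 1 to 4 scored 23.9, 22.0, -9.00 and -36.8. By exonic length, replicates 1 and 2 went the other way from replicates 3 and 4. The shortest of 4 equal bins of genes deviated by a median of -0.13, -0.06, 0.10 and 0.11 in log2. The longest bin deviated by 0.13, 0.08, -0.10 and -0.10. Replicates 3 and 4 were alike in both bins, although their scores on the component differed (-9.00 and -36.8). The 26 listed ribosomal protein genes, which are short, were also higher in replicates 3 and 4, with sums of 195026, 211063, 260655 and 270348. What part of the differences between libraries goes with gene length was not tested.

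Replicate 4 stood apart most often. Of 9938 genes with a mean of at least 100, 418 (4.21%) had a library apart from the other 3, and in 208 of these it was replicate 4. A library counted as apart where its gap to the nearest other over the whole range of the 4 was past Dixon's critical value. By chance about 1 in 20 groups of 4 normal values pass it, so the share of 4.21% was not above that rate. The 10 genes with the largest spread were Xist, Tll1, Uty, Eif2s3y, Kdm5d, Ddx3y, Malat1, Gm43980, BC005561 and Ptpru. Tll1, a metalloprotease of the BMP1 family, had 417, 535, 467 and 71 normalized counts and Ptpru, a receptor phosphatase, 251, 223, 169 and 45. Malat1, a nuclear noncoding RNA, had 5937, 6394, 2231 and 1122, low in replicates 3 and 4. The proliferation marker Mki67 had 4803, 5309, 2879 and 1547, and 11 of the 14 listed cell cycle genes were lowest in replicate 4, against 28.8% of all genes. Of the 21 cytoskeletal genes 17 were highest there, against 29.5% of all genes. Their median exonic length was 3187 bases, and the bins of shorter genes were also higher in replicates 3 and 4. In log2 the cytoskeletal genes had median deviations of 0.05 and 0.24 in replicates 3 and 4. The bin of genes that holds this length had 0.04 and 0.04. The part of length was not tested. Apln, the peptide ligand apelin of tip cells, had 43168, 33651, 51524 and 86197, highest in replicate 4. Its receptor Aplnr, chosen after its values were seen, had 1694, 2325, 2155 and 535, lowest in replicate 4, and the ratio of the normalized counts was 25.5, 14.5, 23.9 and 161. Of the leukocyte adhesion genes, Icam1 had 1628, 1864, 2194 and 1558, with replicates 1 and 4 close together, and E-selectin (Sele) was low at 127, 99, 101 and 56.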

How the data were processed

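RNA of 4 knockout-labelled vehicle libraries was sequenced after a stranded mRNA kit, per the labels' protocols. Tools listed without role or order, per the submitters' processing notes, are STAR 2.7.3a, featureCounts 1.6.5 of Subread, Trimmomatic 0.38, DESeq2 1.26.0 and FastQC, with the build mm10. Strand setting and duplicate handling were not stated in the labels. The deposited values are a normalized signal per gene, read counts scaled by the authors and rounded, so no count test and no counting interval was used. Their low steps put the libraries at 17.1 to 21.1 M (1000000) reads. One row per gene was kept, lists were matched by symbol and exonic lengths came from GENCODE M21 (Python 3.11.15, pandas 2.3.3, numpy 2.4.6, scipy 1.17.1). Each value is given per library, and means carry the SD over 4 libraries. The spread is the SD of log2(value + 1), with a floor of a mean of 10. The steps, the spread and the check for a library apart were tested on simulated data, where steps near 1 were recovered less closely.

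Genes named were drawn from the 20 with the highest mean, the 10 with the largest spread, S1P receptors and mitochondrial protein genes. Xist and Y-linked genes were named too. From each list role came up to 5 members with the highest mean, and members with a mean under 10. From each other cell type came the 3 highest members and markers at 0. Not every gene of these classes is named. Of the pericyte list, Cspg4 and Notch3 (means of 199 and 169) were left out. Aplnr, mt-Rnr1, mt-Rnr2, Sphk2, Erg, Foxf2, Foxq1, Car4, Plvap, Slc22a8, Col15a1, Thbs1, Rgs5, Myh11, Cnn1 and Synpo2 were named after their values were seen. The libraries and lists were chosen with earlier results of these data known. The wild-type table was used for no value. Alternatives were leaving out each library, other floors and pseudocounts, another library total and values per exonic base.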

Additional observations from a re-analysis of the deposited data

Results flagged for a closer look

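In 5 of 91 values checked over the 4 libraries (5.49%), 1 library lay far from the other 3, and chance gives about 1 in 20. The ratio of Apln to Aplnr was taken up after its values were seen, and without it the count is 4 of 90. The genes were also chosen with earlier results known, so the count cannot be read against that rate. S1pr4 had 349 normalized counts in replicate 3 and 250 to 261 in the others. The other 4 were all in replicate 4. Vwf had 40904 there and 87563 to 90488 elsewhere, and Nr2f2 had 603 there and 1071 to 1154 elsewhere. The arterial, capillary and venous list, which holds both genes, summed to 126822 there and to between 167932 and 174923 elsewhere. Vwf is the largest member of this list, so the sum is not a value separate from Vwf. Of the 23 genes of the list, 11 were lowest and 10 were highest in replicate 4. Over all genes with a mean of at least 10 these shares were 28.8% and 29.5%. The ratio of Apln to Aplnr was 161 there and 14.5 to 25.5 elsewhere.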

How the results depend on the processing

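The share of the 20 most abundant genes was 11.3%, 11.1% to 11.4% without 1 library in turn, 10.5% with a total lacking mitochondrial genes and 14.9% per exonic base. The number of genes with a mean of at least 10 was 12894, 12854 to 12956 without 1 library, and 25788 over all rows, which count most genes more than once. The mitochondrial share was 2.36%, 2.21% to 2.56% without 1 library and 7.26% per exonic base, where short genes weigh more. The summed level of the other cell types was 1176 per M, 1154 to 1210 without 1 library and 909.8 per exonic base. Median log2 spread was 0.19, 0.16 to 0.19 without 1 library, 0.25 with a floor of 1 and 0.16 with a floor of 50. Leaving out 1 library moved 4 other values by over 1.5 times: Xist from 3861 to 1745 without replicate 2, and, without replicate 1, Ddx3y from 987 to 557, Col1a1 from 7.0 to 3.67 and the erythroid sum from 0.0854 to 0.0379 per M. Per exonic base, 27 of 34 list sums moved, but these were not all moves of over 1.5 times. The tight junction sum, for one, went from 5504 to 6228 per M. No paired analysis was possible because these libraries form 1 group. Depth limits genes with means under 10, where a few reads set the value.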

Other observations

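Glycolytic genes were present. Of 14 listed glycolytic genes 13 had a mean of at least 10, against 12894 of all 18297 genes. The sum of the 14 was 100417, 97743, 120160 and 127290 normalized counts, higher in replicates 3 and 4. The glycolytic and hypoxia genes together had a median exonic length of 3506 bases. The bins of shorter genes were also higher in replicates 3 and 4, and the part of length was not tested. Pkm, the pyruvate kinase, had a mean of 21749 and Aldoa, the aldolase, of 18077, while hexokinase 2 (Hk2) had 6, 6, 3 and 1. The hypoxia targets Ndrg1 and Adm had means of 7964 and 5346, and Adm, which encodes adrenomedullin, was highest in replicate 4.

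Antigen presentation was of class I. B2m, the light chain of class I molecules, had 17370, 19717, 23450 and 24016 normalized counts, and H2-D1 and H2-K1 had means of 14534 and 12511. The class II genes H2-Ab1, H2-Aa and Cd74 had 0 to 7 in each library. All 12 listed interferon-induced genes had a mean of at least 10, as did 12894 of all 18297 genes. Gbp2 (2868) and Bst2 (2346) were the most abundant of the 12. In replicate 4, 9 of the 12 were highest, against 29.5% of all genes. The median exonic length of these 12 genes was 2960.5 bases, and the bins of shorter genes were also higher in replicates 3 and 4. In log2 the 12 genes had median deviations of 0.02 and 0.31 in replicates 3 and 4. The bin of genes that holds this length had 0.04 and 0.04, and the part of length was not tested. Among chemokines Cx3cl1, a membrane-bound attractant, had 8449, 8400, 8128 and 7109, Ccl2 had 237, 190, 319 and 461, and Il6 had 6, 10, 5 and 3. P-selectin (Selp) was low, with 66, 82, 64 and 44.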
